A study of Mus musculus with 6 samples.

Results

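Type 2 cytokines and the factors that control them were examined in activated mouse CD8+ T cells cultured with trans-vaccenic acid (TVA) or with solvent. The genes were Il3, Il4, Il5, Il9, Il10, Il13, Csf2, Gata3 and Maf, selected on earlier results of these data and picked by gene symbol, and all 9 were found among the 24589 symbols of the table. Primary wild-type (WT) CD8+ T cells were purified with magnetic beads from spleen and lymph nodes of C57BL/6 mice and activated with antibodies to CD3 and CD28. The activated cells then received DMSO, the solvent, in 3 libraries or 20 µM TVA, a trans fatty acid of ruminant fat, in 3 libraries, for 24 h. Activation was shared by both groups, and no resting cells were compared. The labels do not say that the libraries of a group came from separate mice or cultures, so the tests measure the spread between these libraries, which may be technical.

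Type 2 immunity is the arm of the immune response that acts against worms and drives allergy. Its cytokines are made mainly by CD4+ T helper 2 cells, group 2 innate lymphoid cells, mast cells and basophils, and GATA3 is the factor that defines the T helper 2 programme, with MAF as an activator of Il4. CD8+ T cells make interferon gamma above all, although activated CD8+ T cells can transcribe several of these cytokines as well. In the mouse, Il13, Il4 and Il5 lie close together, with a control region within the gene Rad50 between Il13 and Il5, and Il3 and Csf2 form a pair farther along the same chromosome.

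In the mm10 build, with GENCODE vM21 gene models, Il4 spans chr11:53602982-53618669 on the minus strand, Il13 spans chr11:53631324-53634702 on the minus strand and Il5 spans chr11:53720794-53725106 on the plus strand. Csf2 at chr11:54247271-54249667 and Il3 at chr11:54265303-54267277 are both on the minus strand. Il9 lies apart at chr13:56479277-56482246, Il10 at chr1:131019845-131024974, Gata3 at chr2:9857078-9890034 and Maf at chr8:115682942-115707794. An antisense gene overlaps each of Il5, Csf2, Gata3 and Maf, and Gata3 also overlaps 2 protein-coding gene models that are in the table. Whether the quantification used strand is not given in the sources used here, so reads of these genes and of their overlapping partners may not have been told apart.

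The promoters of the 4 genes that were lower with TVA by the test used below are shown because these genes were all lower, by different amounts. The sequences are RefSeq reference sequence on GRCm38.p6, the assembly of mm10, each the 250 bases before the annotated start, 5′ to 3′ on the strand of the gene. Capitals mark matches, on either strand, to motifs of factors known to act on cytokine genes. For GATA factors the letters searched were AGATAA as well as AGATAG, and TGATAA as well as TGATAG. The others were the NFAT core GGAAA, the AP-1 site TGANTCA, the cAMP response element (CRE) TGACGTCA with its half-site TGACG, the MAF half-site TGCTGA and the TATA box TATAAA.
Il13 (chr11:53634703-53634952, minus strand): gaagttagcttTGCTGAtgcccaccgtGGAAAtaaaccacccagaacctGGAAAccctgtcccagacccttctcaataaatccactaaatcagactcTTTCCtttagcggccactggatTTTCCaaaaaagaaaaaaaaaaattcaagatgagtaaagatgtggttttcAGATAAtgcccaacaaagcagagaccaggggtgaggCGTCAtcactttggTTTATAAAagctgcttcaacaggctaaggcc
Il4 (chr11:53618666-53618915, minus strand): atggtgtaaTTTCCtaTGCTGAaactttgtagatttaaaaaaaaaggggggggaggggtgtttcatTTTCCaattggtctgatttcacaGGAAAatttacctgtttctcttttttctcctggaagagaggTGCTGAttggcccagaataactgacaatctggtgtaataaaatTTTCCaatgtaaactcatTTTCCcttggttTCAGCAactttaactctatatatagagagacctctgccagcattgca
Il9 (chr13:56482258-56482507, minus strand): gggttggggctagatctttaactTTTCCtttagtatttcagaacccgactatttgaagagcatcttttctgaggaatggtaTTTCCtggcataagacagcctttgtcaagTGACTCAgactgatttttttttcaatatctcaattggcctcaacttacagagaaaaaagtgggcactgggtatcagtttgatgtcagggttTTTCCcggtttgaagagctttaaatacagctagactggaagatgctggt
Il3 (chr11:54267280-54267529, minus strand): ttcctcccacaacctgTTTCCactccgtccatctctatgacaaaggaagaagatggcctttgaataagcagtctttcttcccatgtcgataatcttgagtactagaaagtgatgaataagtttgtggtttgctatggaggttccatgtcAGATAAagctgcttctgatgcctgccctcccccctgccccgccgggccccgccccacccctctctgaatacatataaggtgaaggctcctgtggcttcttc

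Of the 9 members, 7 matched a RefSeq promoter entry (Il10 and Maf did not). The windows of Csf2 and Gata3 start 232 and 11434 bases from the GENCODE start, beyond the limit of 50 set here, and were not used. The Il13 window held the most kinds of match. It had a GATA match at -81, a CRE half-site at -45, a MAF half-site at -239, NFAT cores at -223, -201, -153 and -131, and overlapping TATA matches on both strands at -31 and -29, with positions counted from the start to the first base of the match on the printed strand. The Il4 window held 5 NFAT cores and 3 MAF half-sites, at -234, -120 and -47, and no GATA match. The Il9 window held the sole AP-1 match, at -140, and NFAT cores at -227, -169 and -49. The Il3 window held a GATA match at -101 and an NFAT core at -234. The Il5 window, not printed, held a GATA match at -72 and NFAT cores at -113 and -47.

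The NFAT core was thus in all 5 windows used, but it is short and was also in 55.7% of the 32536 promoter windows in the table. GATA matches were in 3 of the 5 windows and in 26.5% of all windows, MAF half-sites in 2 of 5 and in 16.1%, CRE half-sites in 1 of 5 and in 17.9%, AP-1 in 1 of 5 and in 6.73%, and TATA in 1 of 5 and in 12.3%. The full CRE was in none of the 5 windows and in 1.56% of all windows. A full CRE contains the half-site and is counted under both. These are matches of letters and were not tested against binding.

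Values are TPM, a measure of transcript abundance with a fixed sum per library, and are scaled for gene length and can be compared between genes, but they keep no trace of sequencing depth, so depth is unknown. Between 10778 and 10870 genes reached 1 TPM in a library. Log2(TPM + 1) values correlated across genes at 0.993 to 0.996 within DMSO and 0.997 to 0.999 within TVA, and genes are not independent replicates. DMSO replicate 2 correlated more with the TVA libraries (0.996 with each) than with the other DMSO libraries (0.993 to 0.995). Where a member or pathway gene was followed over the alternative settings and its call changed without DMSO replicate 2, that value is given. Jund, Cebpb, Crlf2, Socs1 and Sox4, in which DMSO replicate 2 was the lowest DMSO library, were not followed in this way. The labels name no batch. Of the genes that define the labelled cell type, Cd8a was at 274 to 318 TPM and Cd3e at 304 to 366 TPM.

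The genes covered a wide range of levels. In DMSO, Csf2 was highest, at 135 ± 13.2 TPM (mean ± SD, n = 3, as for all values below), followed by Il3 at 76.0 ± 3.76, Il13 at 32.8 ± 2.18, Il4 at 11.2 ± 0.987, Gata3 at 7.12 ± 0.57, Il9 at 5.78 ± 1.38, Il5 at 1.84 ± 0.273, Maf at 1.40 ± 0.112 and Il10 at 0.72 ± 0.173. Each neighbouring pair in that order was separated in all 3 libraries except Gata3 and Il9, whose ranges overlapped. With TVA the order kept Csf2, Il3 and Il13 at the top without overlap. The ranges of Il4 and Gata3 then overlapped, as did those of Il9 and Maf, and of Maf and Il5. The plot of TPM by library shows the 9 genes in this order.

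**Figure D1:**
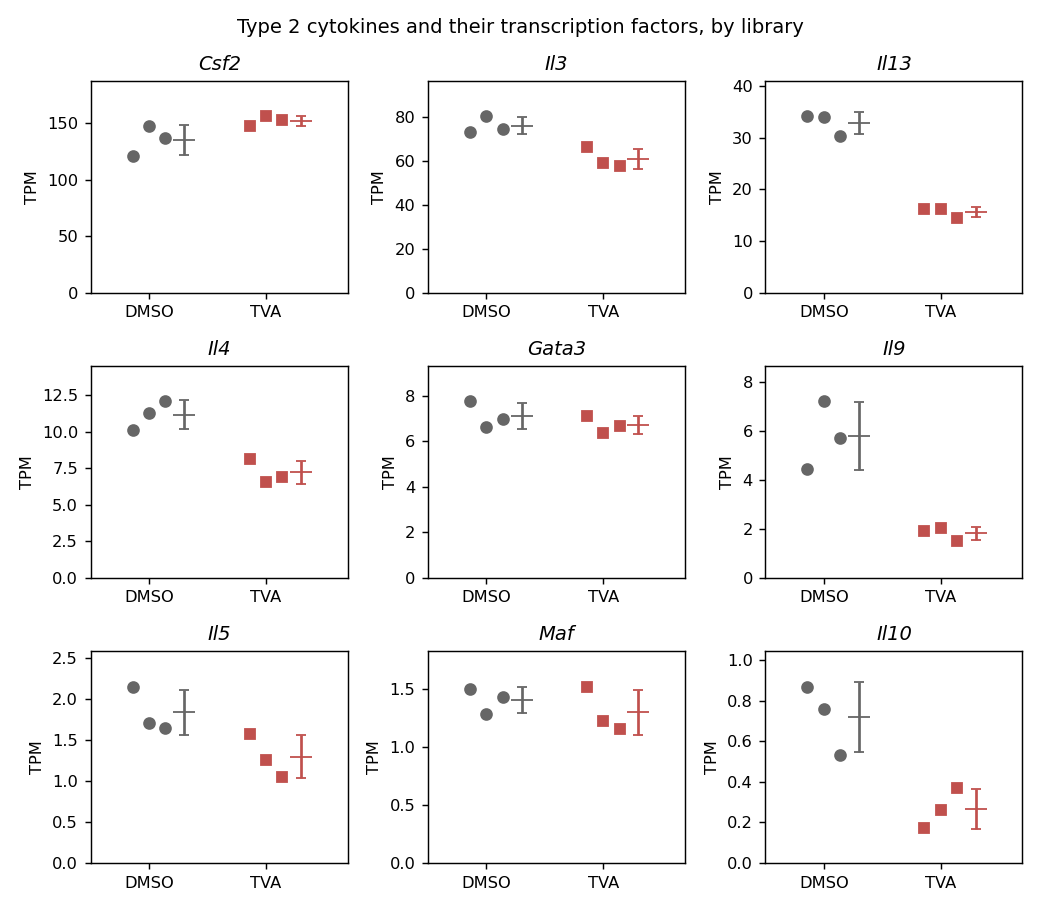
TPM of each gene (y axis from 0, a separate scale per panel) in the 3 DMSO libraries (circles) and the 3 TVA libraries (squares), with the mean and SD to the right of each group. Il13, Il4, Il9, Il3, Il5 and Il10 do not overlap between groups and are lower with TVA, while Csf2, Gata3 and Maf overlap.

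Of the 9 genes, 8 passed the filter of at least 1 TPM in 3 libraries, and Il10 did not. Differences were fitted with limma on log2(TPM + 1) over all 10866 genes that passed, and a gene was called at an adjusted p under 0.05. Il9, Il13, Il4 and Il3 were called, all lower with TVA, which is 4 of the 8, beside 3.23% of all genes tested that were called lower. In 5 of the 8 the groups did not overlap with TVA lower, beside 11.2% of all genes tested. Because the genes were chosen with these values known, the counts describe the choice and nothing is read from them. Without DMSO replicate 3, TVA replicate 2 or TVA replicate 3 the count was 2 (Il9 and Il13 called, Il3 and Il4 not), and without DMSO replicate 2 it was 5, with Csf2 called higher. The median log2 change was -0.31 over the 8 genes and 0.04 over all genes tested.

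Il13, which drives mucus production and alternative macrophage activation, was at 34.1, 34.1 and 30.3 TPM in DMSO and at 16.2, 16.1 and 14.5 TPM with TVA. Every TVA library lay well below every DMSO library, and the spread within each group was small. The mean with TVA was 15.6 ± 1.00 TPM, 0.476 of the DMSO mean, with a log2 change of -1.03 (SE 0.0655). The call held in all 14 alternative settings, in which the log2 change ran from -1.08 to -0.97. Like every member, Il13 was chosen with these values known, so its calls are a description and not support. In bulk RNA, fewer cells that make a cytokine and less RNA per cell cannot be told apart, and this holds for every value below.

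Il4, the cytokine that starts T helper 2 differentiation and class switching to IgE, was at 10.1, 11.3 and 12.1 TPM in DMSO and at 8.13, 6.58 and 6.92 TPM with TVA. The groups did not overlap, and TVA replicate 1 was closest to the DMSO range. The log2 change was -0.57 (SE 0.0883), and the mean with TVA was 0.646 of that with DMSO. Il5, the growth and survival factor of eosinophils, was at 2.15, 1.71 and 1.65 TPM in DMSO and at 1.57, 1.26 and 1.05 TPM with TVA. Its groups were separate by a narrow margin, the log2 change was -0.31 (SE 0.111) and it was not called in any alternative. At this low level the added 1 TPM shrinks the value, and with 0.1 added instead the log2 change was -0.48.

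Il9, a growth factor of mast cells made by T helper 9 cells, had the largest log2 change of the 8 genes. It was at 4.44, 7.20 and 5.71 TPM in DMSO and at 1.89, 2.03 and 1.52 TPM with TVA. The DMSO libraries were spread widely, yet the lowest of them was above every TVA library. The log2 change was -1.25 (SE 0.147), or -1.60 with 0.1 TPM added in place of 1, and the mean with TVA was 0.314 of that with DMSO. Il10, an anti-inflammatory cytokine, was at 0.87, 0.76 and 0.53 TPM in DMSO and at 0.17, 0.26 and 0.37 TPM with TVA. The groups did not overlap, but all values were below 1 TPM and the gene was not tested under the filter. When every gene above 0 TPM was fitted its log2 change was -0.44 and it was not called.

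Il3 and Csf2, which act on haematopoietic progenitors and myeloid cells through receptors that share a beta chain, went in different directions. Il3 was at 73.4, 80.3 and 74.4 TPM in DMSO and at 66.2, 59.2 and 57.6 TPM with TVA. All TVA libraries were below all DMSO libraries, with TVA replicate 1 nearest to them, and the log2 change was -0.31 (SE 0.0619). Csf2 was at 121, 147 and 137 TPM in DMSO and at 147, 156 and 153 TPM with TVA. DMSO replicate 2 reached the level of TVA replicate 1, so the groups overlapped, and the log2 change was 0.17 (SE 0.0693) and not called. Without DMSO replicate 2 the log2 change was 0.24 (SE 0.0577) and Csf2 was called higher, whereas it was 0.09 without DMSO replicate 1 and 0.10 after a correction for GC content, and not called.

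The transcription factors differed little between groups. Gata3 was at 7.75, 6.64 and 6.97 TPM in DMSO and at 7.13, 6.36 and 6.65 TPM with TVA. Maf was at 1.50, 1.28 and 1.43 TPM in DMSO and at 1.52, 1.22 and 1.15 TPM with TVA. For both genes the ranges of the groups overlapped. The log2 changes were -0.07 (SE 0.0696) for Gata3 and -0.07 (SE 0.0893) for Maf, and neither gene was called in any alternative in which it was tested. At the low level of Maf the added 1 TPM shrinks the value, which was -0.11 (SE 0.146) with 0.1 TPM added instead. The chart of log2 changes shows the factors next to 0 and Il13 and Il9 farthest from it.

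**Figure D2:**
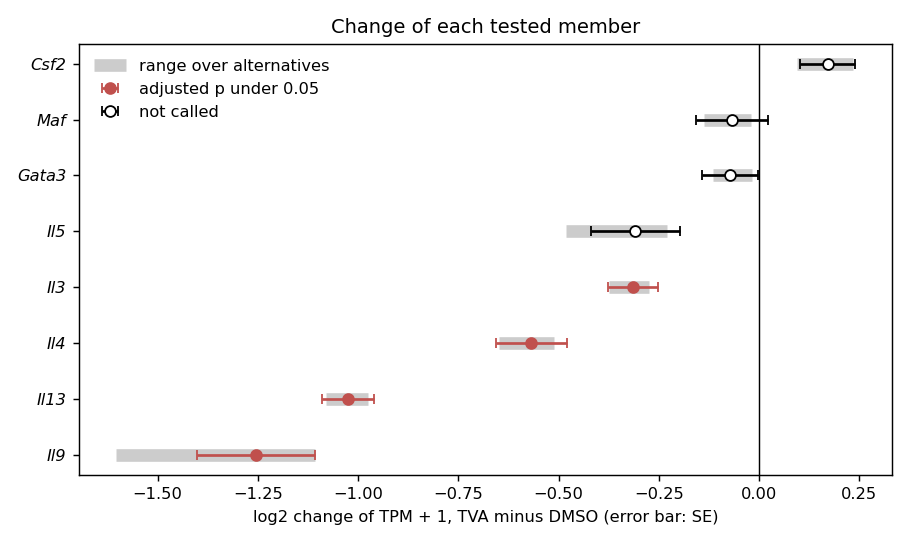
Log2 change of TPM + 1, TVA minus DMSO, for the 8 tested genes, with the SE as error bars and grey bands for the range over the alternative settings (up to 14) in which a gene was tested. Filled points were called at an adjusted p under 0.05. Il9 (-1.25) and Il13 (-1.03) lie farthest from 0, and no band crosses 0.

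Because each library gives all the cytokines at once, their proportions were also compared within a library. The 7 cytokines together came to 246, 283 and 262 TPM in DMSO and to 241, 241 and 235 TPM with TVA. Most of that sum was Csf2 and Il3. Csf2 made up 49.2% to 52.4% of it in DMSO and 61.0% to 65.1% with TVA, whereas Il13 made up 11.6% to 13.8% in DMSO and 6.16% to 6.73% with TVA. Il4, Il5, Il9, Il10 and Il13 alone came to 51.7, 55.0 and 50.3 TPM in DMSO and to 28.0, 26.3 and 24.3 TPM with TVA. The sum of these 5 cytokines with TVA was thus separate from that in DMSO, at 26.2 ± 1.84 and 52.3 ± 2.44 TPM.

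The ratios within a library show that the genes did not move by the same factor. The ratio of Il13 to Il4 was 3.37, 3.02 and 2.51 in DMSO and 2.00, 2.45 and 2.09 with TVA, which were separate by a small margin. The ratio of Csf2 to Il3 was 1.65, 1.84 and 1.84 in DMSO and 2.22, 2.64 and 2.65 with TVA, higher in every TVA library. The ratio of Il13 to Gata3, a cytokine to the factor that activates it, was 4.63 ± 0.437 in DMSO and 2.33 ± 0.187 with TVA. These ratios come from the values that chose the genes and are given without a test.

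Genes that neighbour the cytokine cluster on chromosome 11 were taken as a list of 19 genes, of which 18 were in the table and 12 were tested. Of these, limma called 2, both lower, and 10 were not called, beside 8.51% of all genes tested that were called in either direction. At an unadjusted p under 0.05, 2 of the 12 were higher and 3 lower, beside 21.5% of all genes tested that were higher at that threshold and 10.3% that were lower. The median log2 change of the 12 was 0.03. The genes nearest to Il4, Il13 and Il5 were not among those called. Kif3a, a kinesin subunit whose start lies 67.3 kb on the Il4 side of the start of Il13, was at 1.45, 1.48 and 1.28 TPM in DMSO and at 1.51, 1.42 and 1.79 TPM with TVA. Rad50, a DNA repair gene between Il13 and Il5, was at 26.6, 26.7 and 27.1 TPM in DMSO and at 26.7, 28.7 and 27.7 TPM with TVA. Its log2 change was 0.05 (adjusted p = 0.47), and its groups overlapped. Irf1, an interferon-regulated factor 135 kb from the start of Il13, had a log2 change of 0.11 (adjusted p = 0.13) and was called higher without DMSO replicate 2, at 0.14.

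The 2 neighbours that were called lie on either side of Il3 and Csf2. Acsl6, an acyl-CoA synthetase that activates fatty acids, starts 669 kb from the start of Il13, next to Il3 at 633 kb and Csf2 at 615 kb. It was at 4.69, 4.35 and 3.86 TPM in DMSO and at 2.33, 2.23 and 2.47 TPM with TVA. All TVA libraries were below all DMSO libraries, with a log2 change of -0.66 (adjusted p = 0.0052), and Acsl6 was called in all 13 alternatives that tested it. P4ha2, a collagen prolyl hydroxylase that starts at 465 kb, was at 2.85, 3.30 and 3.37 TPM in DMSO and at 2.21, 2.17 and 1.94 TPM with TVA, with a log2 change of -0.42 (adjusted p = 0.022). P4ha2 was not called with replicate number fitted as a block, without DMSO replicate 3 or without any one of the TVA libraries. Its log2 change stayed negative in each of these settings. Csf2 lies between P4ha2 and Il3.

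**Figure D3:**
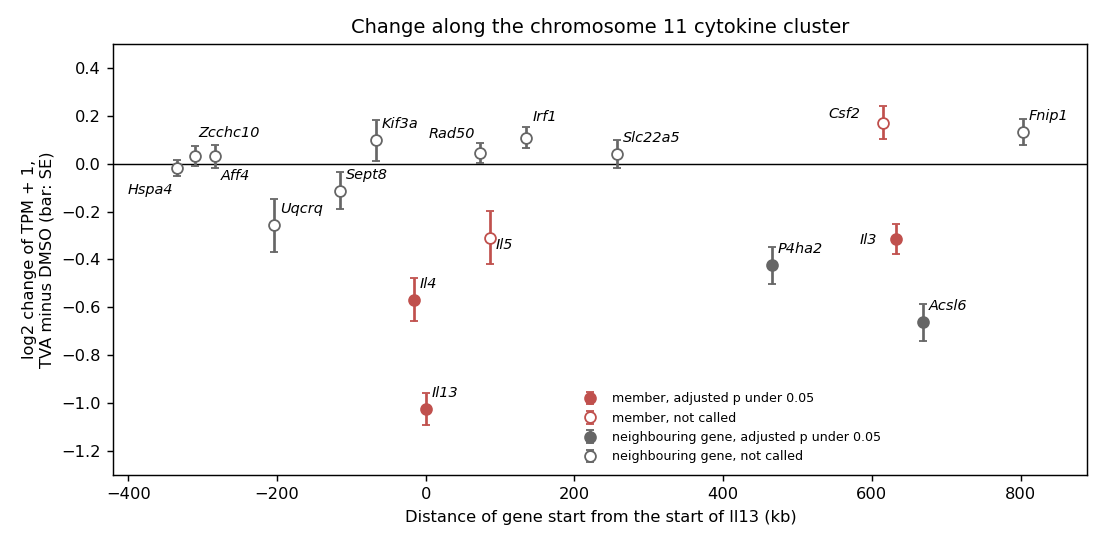
Log2 change of TPM + 1, TVA minus DMSO, with SE, for the tested genes around the cytokine cluster, against the distance of each gene start from the start of Il13 in kb. Filled points were called at an adjusted p under 0.05. Il4, Il13, P4ha2, Il3 and Acsl6 are lower, while among the genes between them that were not called Rad50, Irf1, Slc22a5 and Csf2 are above 0 and Il5 (-0.31) is below 0.

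The other genes of the pathway were counted in 6 lists that include these neighbours, with 105 genes in all, of which 83 were tested. TVA raised 4 and lowered 13 of them, and 66 were not called. Among the 4 was Areg, which passed the filter through the TVA libraries alone, so this count is tied to the filter. Beside these, 5.28% of all genes tested were called higher and 3.23% lower. That split over all genes was 574 higher and 351 lower, but 292 and 462 with median-of-ratios scaling and 360 and 416 with quantile normalization, under which the lists had 3 higher and 18 lower, and 3 higher and 16 lower. The median log2 change over the 83 was -0.10. The count was 39 without DMSO replicate 2, 10 without DMSO replicate 3, and 8, 6 and 7 without TVA replicates 1, 2 and 3. Over all genes tested the calls in these settings were 2242, 294, 125, 102 and 113, beside 925 in the main fit. Acsl6, Ccr4, Ccr8, Eomes, Il2 and Il22 were called in every alternative that tested them. Areg lost its call without TVA replicate 2, and because its call is tied to the filter, how often it held is not read as support. The other 10 genes called (Batf, Ebi3, Il10ra, Il10rb, Lta, Nfkb1, P4ha2, Socs3, Stat5a and Tnfsf11) were not called without TVA replicate 2 or without TVA replicate 3.

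Among 23 receptors, kinases and STAT proteins that carry the signal of these cytokines, 19 were tested. Of these, 2 were called higher and 2 lower, beside 5.28% and 3.23% of all genes tested, and 15 were not called. At an unadjusted p under 0.05, 4 of the 19 were higher and 10 lower, beside 21.5% and 10.3% of all genes tested. The median log2 change was -0.15. Both chains of the IL-10 receptor were called higher, though the call of Il10rb held in only 4 of 14 alternatives. Il10ra, the ligand-binding chain, was at 14.2, 15.3 and 13.9 TPM in DMSO and at 18.7, 18.0 and 17.8 TPM with TVA, with a log2 change of 0.31 (adjusted p = 0.017). Il10rb, the shared chain, had a log2 change of 0.18 (adjusted p = 0.044), and among others was not called with median-of-ratios scaling (0.16), quantile normalization (0.17) or GC correction (0.15). Stat5a, which carries signals of IL-2, IL-3 and GM-CSF, was at 179, 159 and 153 TPM in DMSO and at 126, 126 and 125 TPM with TVA, with a log2 change of -0.38 (adjusted p = 0.016). Socs3, a feedback inhibitor of STAT3 signals, had a log2 change of -0.33 (adjusted p = 0.037), which was -0.02 and not called after a correction for GC content. Socs1 was at 126, 42.7 and 93.4 TPM in DMSO and at 43.9, 40.95 and 41.5 TPM with TVA. Its groups overlapped, and its log2 change of -0.90 was not called (adjusted p = 0.12). The receptor and STAT of IL-4 itself were not called. Il4ra had a log2 change of -0.05 (adjusted p = 0.64), the sign of which changed between settings, and Stat6 had one of 0.06 (adjusted p = 0.43). Il2rg, the common gamma chain, had a log2 change of 0.14 (adjusted p = 0.070) and was called higher without DMSO replicate 2, at 0.17. Csf2rb, the shared beta chain for IL-3 and GM-CSF, had one of -0.19 (adjusted p = 0.14), while Il5ra and Il9r were below 0.1 TPM in every library.

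Of 25 factors known to promote type 2 genes or T cell cytokine transcription, 22 were tested, limma called none higher and 2 lower, and 20 were not called, with a median log2 change of -0.12. At an unadjusted p under 0.05, 2 of the 22 were higher and 9 lower, beside 21.5% and 10.3% of all genes tested. Batf, an AP-1 family factor needed for Il4 and Il9 expression in helper cells, was at 73.1, 70.4 and 64.3 TPM in DMSO and at 55.4, 59.9 and 54.4 TPM with TVA. The groups did not overlap, with a log2 change of -0.29 (adjusted p = 0.033). Nfkb1, a subunit of NF-kB, had a log2 change of -0.22 (adjusted p = 0.041). Irf4, a partner of BATF, had one of 0.06 (adjusted p = 0.31). Gfi1 and Nfatc1 had values of -0.01 (adjusted p = 0.88) and -0.10 (adjusted p = 0.42), the signs of which changed between settings. Junb, an AP-1 subunit that activates Il4, was at 426, 199 and 346 TPM in DMSO and at 186, 170 and 169.5 TPM with TVA. DMSO replicate 2 lay next to the TVA libraries and the other DMSO libraries far above them, so that the log2 change of -0.81 was not called (adjusted p = 0.071). Without DMSO replicate 2 the log2 change of Junb was -1.13 and it was called lower, whereas it was -0.58 without DMSO replicate 1 and -0.51 after GC correction and not called. Jund was at 238, 61.7 and 165 TPM in DMSO and at 49.4, 48.0 and 45.4 TPM with TVA. Its groups did not overlap, and its log2 change of -1.48 was not called (adjusted p = 0.064). Cebpb had a log2 change of -1.02 (adjusted p = 0.097) and separate groups.

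Of 9 factors that oppose the type 2 programme, all were tested, 1 was called higher and 8 were not called, beside 5.28% of all genes tested called higher. At an unadjusted p under 0.05, 1 of the 9 was higher and 2 lower, beside 21.5% and 10.3% of all genes tested. The median log2 change was -0.01, and 5 of the 9 values were negative. The gene called was Eomes, a T-box factor of cytotoxic and memory CD8+ T cells. It was at 23.45, 20.4 and 21.8 TPM in DMSO and at 32.9, 32.4 and 32.1 TPM with TVA, a log2 change of 0.55 (adjusted p = 0.0031). Tbx21, which encodes T-bet and represses GATA3 function, had a log2 change of -0.15 (adjusted p = 0.28), and Runx3, which silences Il4 in cytotoxic cells, had one of -0.28 (adjusted p = 0.11). Both values moved with the setting. Tbx21 was called lower without DMSO replicate 2, at -0.26, but was at -0.06 without DMSO replicate 1 and at -0.04 after GC correction. Runx3 was called lower without DMSO replicate 2, at -0.38, and was at -0.16 and -0.11 under the other two. Sox4 was at 6.33, 3.26 and 4.76 TPM in DMSO and at 2.34, 2.74 and 2.41 TPM with TVA. Its groups did not overlap, and its log2 change of -0.69 was not called (adjusted p = 0.052).

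Of 13 surface and effector genes of type 2 cells, 7 were tested. Of these, 1 was called higher and 2 lower, beside 5.28% and 3.23% of all genes tested, and 4 were not called. At an unadjusted p under 0.05, 1 of the 7 was higher and 3 lower, beside 21.5% and 10.3% of all genes tested. The chemokine receptors of T helper 2 cells were the 2 called lower. Ccr4 was at 12.3, 12.6 and 11.6 TPM in DMSO and at 7.38, 8.43 and 8.48 TPM with TVA, a log2 change of -0.53 (adjusted p = 0.0066). Ccr8 was at 4.17, 3.91 and 3.89 TPM in DMSO and at 2.29, 2.61 and 2.56 TPM with TVA, a log2 change of -0.52 (adjusted p = 0.0080). In both genes every TVA library was below every DMSO library. Crlf2 was at 48.6, 17.6 and 37.1 TPM in DMSO and at 14.6, 12.4 and 12.9 TPM with TVA. Its groups did not overlap, and its log2 change of -1.20 was not called (adjusted p = 0.055). Areg, which encodes the tissue repair factor amphiregulin, went the other way. It was at 0.92, 0.65 and 0.90 TPM in DMSO and at 2.87, 2.58 and 1.97 TPM with TVA, a log2 change of 0.92, or 1.48 with 0.1 TPM added in place of 1. Areg passed the filter through the TVA libraries alone, so its call is tied to the filter and its values are given as a description.

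The other cytokines of T cells gave the closest comparison for the cytokines described here. Of 16, 14 were tested, limma called none higher and 5 lower, and 9 were not called, with a median log2 change of -0.16. At an unadjusted p under 0.05, 0 of the 14 were higher and 7 lower, beside 21.5% and 10.3% of all genes tested. Il2, the main T cell growth factor, was at 500, 517 and 500 TPM in DMSO and at 357, 361 and 362 TPM with TVA, a log2 change of -0.49 (adjusted p = 7.2e-04). Il22, a cytokine that acts on epithelium, was at 40.5, 44.8 and 44.8 TPM in DMSO and at 26.6, 27.3 and 29.9 TPM with TVA, a log2 change of -0.62 (adjusted p = 0.0030). Ebi3, Tnfsf11 and Lta were lower by smaller amounts, with log2 changes of -0.34 (adjusted p = 0.044), -0.27 (adjusted p = 0.023) and -0.21 (adjusted p = 0.028). The call of Ebi3 held in 6 of 13 alternatives, and it was lost without DMSO replicate 1 or 3 and after GC correction, at -0.28. Ifng, the leading cytokine of CD8+ T cells, was at 1626, 1657 and 1726 TPM in DMSO and at 1726, 1749 and 1737 TPM with TVA. Its TVA values began where its DMSO values ended, and the log2 change of 0.06 was not called (adjusted p = 0.33) and changed sign after the correction for GC content. The chart of the pathway lists shows these genes beside those that were not called.

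**Figure D4:**
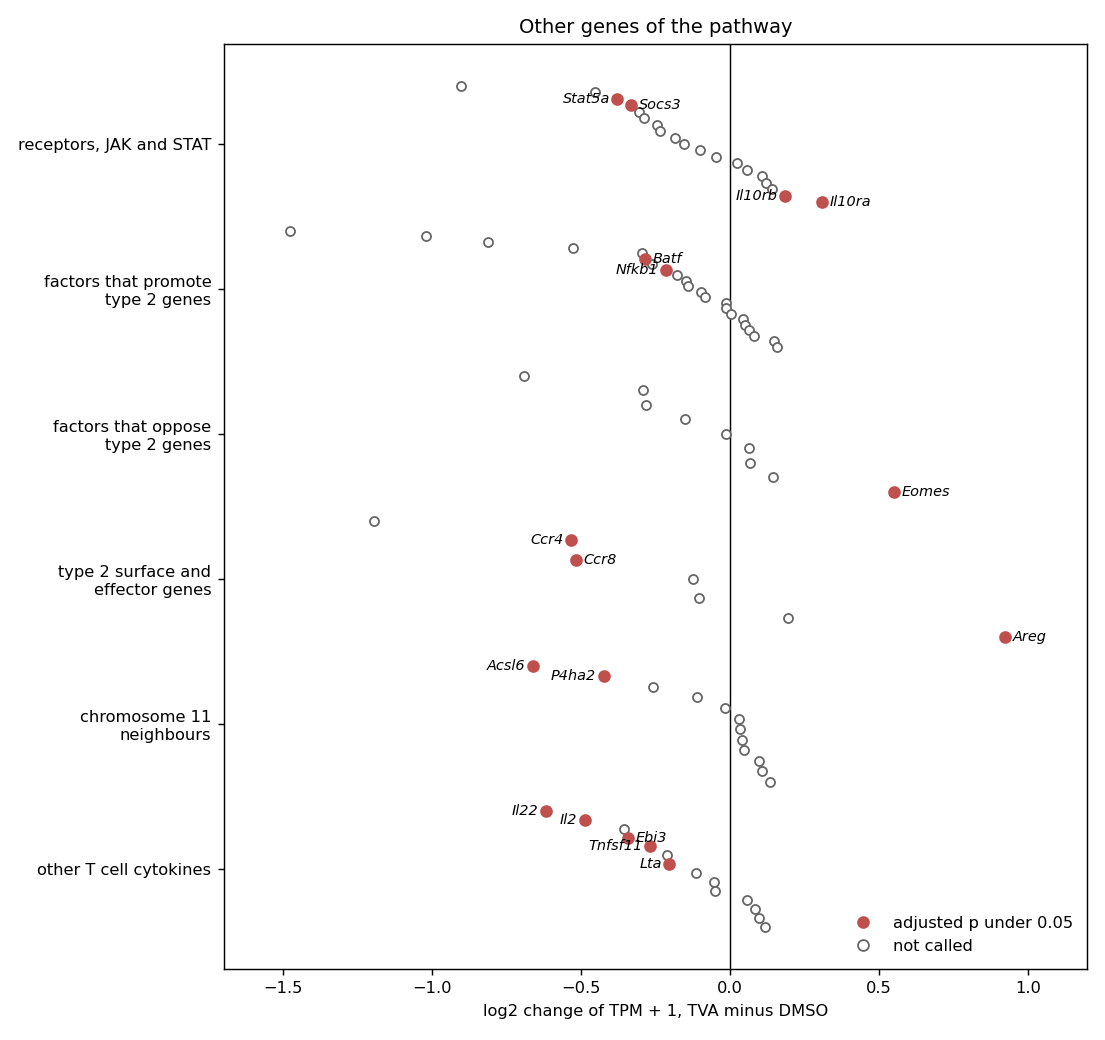
Log2 change of TPM + 1, TVA minus DMSO, of every tested gene in the 6 pathway lists, 1 point per gene, ordered by value within a list. Filled, named points were called at an adjusted p under 0.05. The chemokine receptors Ccr4 and Ccr8 lie at -0.53 and -0.52, Areg at 0.92 and Eomes at 0.55. Areg passed the filter through the TVA libraries alone.

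Type 2 cytokines are also made by other cells that a purified CD8+ culture can hold, and markers of these cells were measured. Of 11 mast cell and basophil genes, 8 were tested, 1 was higher (Prss34), 2 were lower (Fcer1a and Hdc) and 5 were not called. Their summed level was 56.5 to 57.0 TPM in DMSO and 52.0 to 54.4 TPM with TVA, which did not overlap. For these and the marker counts below, the shares of all genes tested were 5.28% called higher and 3.23% called lower. Mcpt8, a protease of basophils, was present in every library, at 19.8, 20.5 and 21.3 TPM in DMSO and at 19.0, 18.6 and 18.0 TPM with TVA. Cpa3, a protease of mast cells and basophils, was at 6.80, 7.52 and 7.31 TPM in DMSO and at 7.22, 7.01 and 7.86 TPM with TVA. Fcer1a, a chain of the IgE receptor, was at 6.86, 7.48 and 7.72 TPM in DMSO and at 5.13, 5.20 and 5.34 TPM with TVA, and its log2 change of -0.42 (adjusted p = 0.011) lay between those of Il3 and Il4. Gata2, a factor of mast cells and basophils, was at 3.85, 2.67 and 2.90 TPM in DMSO and at 1.82, 2.17 and 2.07 TPM with TVA. Its groups did not overlap, and its log2 change of -0.45 was not called (adjusted p = 0.051). Prss34 had a log2 change of 0.30 (adjusted p = 0.033) and Hdc one of -0.51 (adjusted p = 0.017). The mast cell proteases Mcpt4 and Tpsb2 were listed at 0 in every library. The part of these cells in the lower levels of Il4, Il13, Il9 and Il3 was not tested.

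Among 4 CD4+ T cell genes, 3 were tested, 1 was lower (Cd40lg, log2 change -0.33, adjusted p = 0.030) and 2 were not called, and their summed level was 15.1 to 16.2 TPM in DMSO and 12.2 to 14.2 TPM with TVA. Cd4 itself was at 4.25, 4.46 and 3.80 TPM in DMSO and at 3.62, 3.64 and 3.33 TPM with TVA. Of 4 eosinophil genes, 2 were tested and called lower, Prg2 (log2 change -0.51, adjusted p = 0.030) and Epx (-0.62, or -1.21 with 0.1 TPM added in place of 1), of which Epx passed the filter through the DMSO libraries alone, and the summed level was 10.5 to 13.5 TPM in DMSO and 7.25 to 8.06 TPM with TVA. Of 5 genes of group 2 innate lymphoid cells, 2 were tested and neither was called, at 4.14 to 4.33 TPM in sum in DMSO and 4.03 to 4.56 TPM with TVA. The 6 myeloid genes summed to 40.7 to 44.4 TPM in DMSO and 54.2 to 55.8 TPM with TVA, with Lyz2 called higher among 5 tested, and the 4 genes of NK and NKT cells to 8.94 to 11.8 TPM and 12.1 to 16.3 TPM, with Tyrobp called higher as the only 1 tested. The higher sum of the NK and NKT list was that of Tyrobp, at 8.76 ± 1.23 TPM in DMSO and 13.6 ± 2.32 TPM with TVA, while the means of Ncr1, Klrb1c and Zbtb16 were below those in DMSO, at 0.163, 0.173 and 0.78 TPM against 0.31, 0.323 and 1.04 TPM. The 5 B cell genes summed to 11.3 to 14.9 TPM in DMSO and 10.65 to 11.02 TPM with TVA, with 1 tested and not called. Of 7 CD8+ T cell genes, all tested, 2 were called higher (Cd3g and Prf1) and 5 were not called. In 5 of the 7 the groups did not overlap with TVA higher, as in 2970 of all 10866 genes tested. The 7 genes summed to 4591 to 4894 TPM in DMSO and 4893 to 4994 TPM with TVA. All 10 marker genes called here (Prss34, Fcer1a, Hdc, Cd40lg, Epx, Prg2, Lyz2, Tyrobp, Cd3g and Prf1) lost the call without TVA replicate 2, with the direction kept. The part of any of these cells in the cytokine values was likewise not tested.

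**Figure D5:**
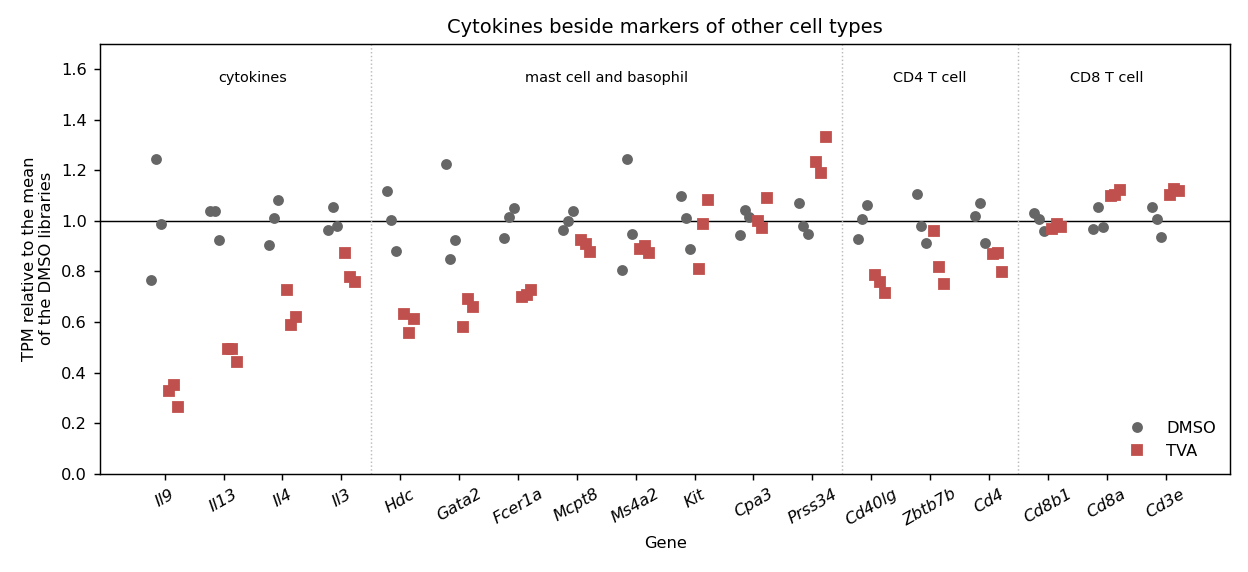
TPM of each gene in each library divided by the mean of the 3 DMSO libraries, for the 4 cytokines called lower, for the tested genes of mast cells and basophils and of CD4+ T cells, and for 3 of the 7 CD8+ T cell genes. Cd3d, Gzmb, and Cd3g and Prf1, which were called higher, are not shown. Circles are DMSO and squares TVA. With TVA, Il9 and Il13 lie below all marker genes shown, Hdc, Gata2 and Fcer1a near Il4, and Prss34 above 1. Eosinophil genes are not shown. Of the 2 tested, Prg2 was at 0.664 of its DMSO mean and Epx, a low gene, at 0.389.

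Across the 6 libraries, the genes whose pattern was most like that of a member were found by the root mean square difference of their deviations in log2(TPM + 1), among the 8935 tested genes that averaged 5 TPM or more. For Il9, the member with the largest change, these were Gzmc, a granzyme (difference 0.17), Il13 itself (0.22), Il1a (0.22), Axl, a receptor tyrosine kinase (0.26), and Ifitm2 (0.28). Gzmc was at 12.99, 16.85 and 14.88 TPM in DMSO and at 7.08, 6.77 and 6.95 TPM with TVA, highest in DMSO replicate 2, as Il9 was. For Il13 the nearest was Axl (0.06), at 16.4, 15.8 and 14.7 TPM in DMSO and 8.01, 7.61 and 7.41 TPM with TVA. For Il4 it was Car1 (0.08), for Il3 Ctla4 (0.04) and for Il5 Ms4a4a (0.05). The nearest genes to Csf2, Gata3 and Maf were Eif2ak2, Mrpl37 and Trmt112, each within 0.03, but genes with small changes lie close to many others on this measure. Between members, Gata3 and Maf were closest (0.05), then Il3 and Il5 (0.11), and Il9 and Csf2 were farthest apart (0.72).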

How the data were processed

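Bulk RNA-seq was measured in 3 DMSO and 3 TVA libraries, made from total RNA with a SMARTER mRNA-Seq kit per the labels. The authors deposited 1 table of TPM per gene symbol with 2 decimals. The submitters' processing notes name STAR, RSEM and mm10; versions, annotation and filters are not given in the sources used here. Groups and replicate numbers came from the sample titles, and columns were assigned through the sample descriptions. TPM keeps no depth, so precision rests on the spread between libraries and no counting interval is given.

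From these values, log2(TPM + 1) was fitted for the 10866 genes at 1 TPM or more in at least 3 libraries, with limma 3.58.1 (trend, R 4.3.3), two-sided, and Benjamini-Hochberg adjustment over all genes tested. Fold changes on this scale are understated for low genes. The 9 members and all gene lists were chosen with earlier results of these data known, so members carry no p-value and no list is independent support. Named pathway genes were those called in a list (at most 5 by size of change) and 17 genes fixed by name. Named markers, and Jund, Cebpb, Crlf2, Socs1 and Sox4, were described after their values were seen. For each gene of the table with GENCODE vM21 transcripts (99.4% of those tested), GC content was taken for 1 alternative (loess span 0.5). Tables and figures were made with Python 3.11.15, pandas 2.3.3 and matplotlib 3.10.9. The 14 alternatives are described with their effect at the end.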

Additional observations from a re-analysis of the deposited data

How the results depend on the processing

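No member changed sign in any of the 14 alternatives. Of 107 member values, 2 moved by more than 1 SD, Il9 to -1.60 and Il5 to -0.48 with 0.1 TPM added in place of 1. The 925 genes called over the whole table became 494 when every gene above 0 TPM was fitted and 608 when a mean of 10 TPM was required, and ranged from 102 to 2242 when a library was left out, the highest without DMSO replicate 2. The share of calls that were higher with TVA was 62.1%, but 38.7% with median-of-ratios scaling, 46.4% with quantile normalization and 52.0% with GC correction, so the balance of directions over all genes depends on the scaling. The 4 members called ranged from 2 to 5 without a library, and were 2 at a mean of 10 TPM or more, where 3 members were tested. The 17 other pathway genes ranged from 6 to 39 without a library.

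The replicate numbers shared by the groups did not pair the libraries (correlations of deviations 0.16, 0.03 and -0.08). With the replicate block, 218 genes, 2 members (Il9 and Il13) and 8 other pathway genes were called.

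Of 427 values of named pathway genes, 59 lost the call, 5 gained it and 8 changed sign, all in genes not called. These were Gfi1, from -0.054 to 0.038 when a library was left out and 0.0504 with GC correction, Il4ra, from -0.108 to 0.0277 when a library was left out and 7.4e-04 with GC correction, Nfatc1, from -0.151 to 0.0016 when a library was left out, and, with GC correction, Ifng at -0.0104 and Rad50 at -0.0183. The 10 marker genes called were put through the same alternatives after the data were seen, and each kept its sign.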
